A study of Mus musculus with 34 samples.

Results

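Loss of the kinases MST1 and MST2 can change a gene by different amounts in different dendritic cell (DC) subsets, and the comparison described here asks for which genes it did. It is the interaction of genotype with subset: the Mst1/2-KO minus WT difference in CD8+ DCs, minus the same difference in CD8- DCs, on the log2 scale. Of the 34 arrays in the series, 16 enter it, chosen by their labels as the sorted subset arrays: 4 of Mst1/2-KO CD8+ DCs, 4 of WT CD8+ DCs, 4 of Mst1/2-KO CD8- DCs and 4 of WT CD8- DCs. All cells were sorted by FACS from the spleen of C57BL/6 mice, no stimulation is given for these groups, and the knockout is labelled Mst1/2-/- without a Cre driver, age or sex. All 22180 genes with a probe set of their own were tested, and 3 Mst1/2-KO and 4 WT arrays of total DCs, which the interaction did not use, are quoted for the named genes. The labels do not say that replicates are separate animals, so p-values measure the spread between these arrays, which may be technical.

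MST1 (gene Stk4) and MST2 (gene Stk3) are the core kinases of the Hippo pathway, which phosphorylate and activate the LATS kinases and so restrain the coactivators YAP and TAZ, and they also act outside that cascade in immune cells. Splenic conventional DCs fall into CD8+ cells, which depend on the transcription factors IRF8 and BATF3 and cross-present antigen to CD8+ T cells, and CD8- cells, which carry SIRPα and present mainly to CD4+ T cells. A smaller population, the plasmacytoid DCs, depends on TCF4 and makes type I interferon.

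Cd8a and Sirpa followed the labels of the sorted cells. Cd8a lay at 11.93 to 12.23 log2 units in Mst1/2-KO CD8+ DCs and at 12.04 to 12.25 in WT CD8+ DCs, against 6.64 to 8.01 in Mst1/2-KO CD8- DCs and 6.42 to 7.0 in WT CD8- DCs. Sirpa ran the other way, at 7.09 to 7.37 in Mst1/2-KO CD8+, 7.13 to 7.54 in WT CD8+, 10.27 to 10.44 in Mst1/2-KO CD8- and 10.52 to 10.71 in WT CD8- DCs. The list of CD8- DC markers used below had a mean of 6.17 to 6.50 on CD8+ and 8.27 to 8.64 on CD8- arrays. Not every member followed it: Clec12a was at 9.82 to 9.98 in CD8+ against 8.09 to 9.11 in CD8- DCs. The median signal per array was 4.115 to 4.195 log2 units, and each array correlated with the others of its group at a mean r of 0.989 to 0.993.

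The targeted gene Stk4 was lower in the knockout by about the same amount in both subsets. Its log2 signal was 7.64, 7.22, 7.63 and 7.39 in the 4 Mst1/2-KO CD8+ arrays, against 8.26, 8.33, 8.46 and 8.28 in WT CD8+ arrays. It was 7.49, 7.67, 7.65 and 7.39 in Mst1/2-KO CD8- arrays, against 8.15, 8.40, 8.44 and 8.28 in WT CD8- arrays. The genotypes did not overlap in either subset. The effect was -0.86 ± 0.10 (SE) in CD8+ DCs and -0.77 ± 0.10 in CD8- DCs, and their difference of -0.09 had a 95% interval of -0.40 to 0.21 (adjusted p = 0.913). Stk3 has no probe set of its own in the annotation and is not analysed here.

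Subset dependence was found for 124 of 22180 genes (0.559%), at an adjusted p under 0.05 over all genes. The interaction was positive, meaning a higher or less negative Mst1/2-KO effect in CD8+ DCs, for 49 genes (0.221%), and negative for 75 (0.338%). Their median absolute interaction was 1.10 log2 units, the smallest was 0.43, and 80 genes differed at least 2-fold between the subsets. Without adjustment, 2030 genes had p under 0.05. The count was 211 with the replicate number as a fixed block, of which 107 were among the 124. It also moved with single arrays: it was 259 without WT CD8- replicate 1, 79 without WT CD8- replicate 2 and 80 without Mst1/2-KO CD8- replicate 4. Of the 36 called genes named here, 26 kept the call whichever single array was left out. The other 10 (Mid2, Tlr7, Adgre1, Slc2a3, Anxa3, Cd24a, Tnfsf9, Elovl6, Aldoc and Itga5) kept their direction but lost the call without 7 to 12 of the 16 arrays, with a highest adjusted p of 0.0666 to 0.108.

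Most of the called genes changed in CD8- DCs. The larger absolute effect lay in CD8- DCs for 104 of the 124 (83.9%, against 55.7% of all genes). It lay in CD8+ DCs for 20. By the separate genotype tests, 102 of the 124 passed in CD8- DCs alone, 14 in CD8+ DCs alone, 6 in both and 2 in neither. Over all genes the genotype effect was called for 197 genes in CD8+ DCs (0.888%) and for 1482 in CD8- DCs (6.68%). The interaction test is the measure of subset dependence used here, and most genes called in CD8- DCs alone did not pass it. In these bulk samples, fewer cells of a type and less RNA per cell cannot be told apart.

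**Figure D1:**
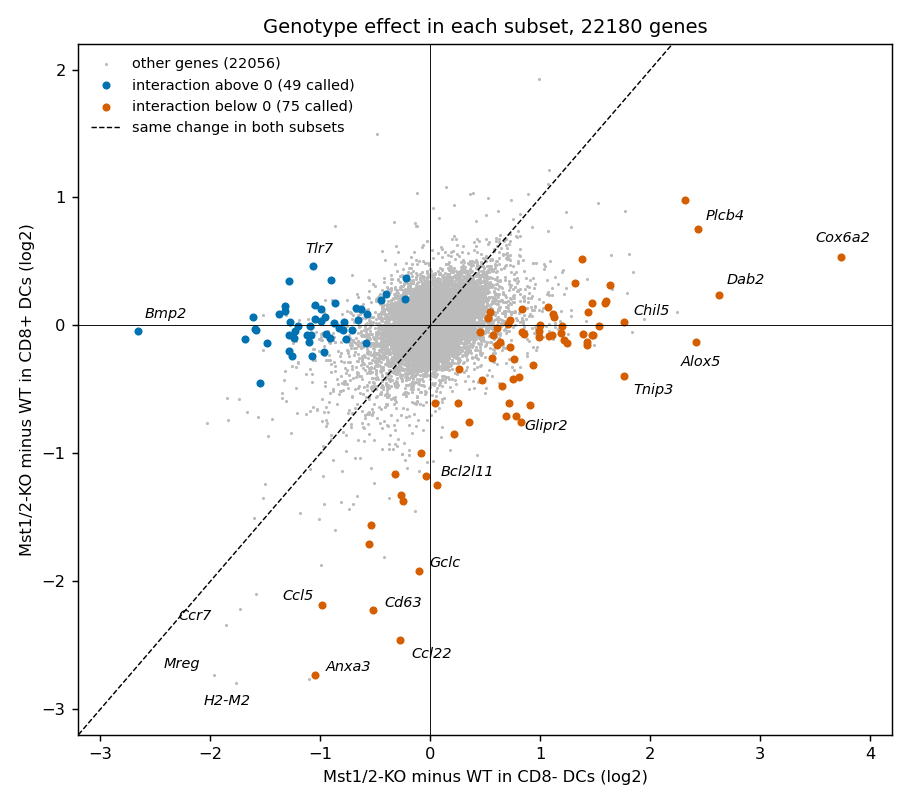
Genotype effect of each of 22180 genes in CD8- DCs (horizontal axis, log2) and in CD8+ DCs (vertical axis, log2), with the 49 genes of positive and the 75 of negative interaction in colour and a dashed line where both effects are equal. Most coloured points lie near the horizontal zero line, far to the right or left, and a smaller group lies below it near the vertical zero line.

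The first and largest group, 56 of the 124, was higher in Mst1/2-KO CD8- DCs, with effects in CD8+ DCs that centred near 0. Its median effect was -0.06 in CD8+ DCs and 1.07 in CD8- DCs. All 56 passed the genotype test in CD8- DCs, 3 of them also in CD8+ DCs. This and the following groups were set by called interactions and the subset with the larger effect, a choice that favours a pass there. The leading genes were Cox6a2, a subunit isoform of cytochrome c oxidase, Alox5, the 5-lipoxygenase that starts leukotriene synthesis, and Dab2, an endocytic adaptor.

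Cox6a2 had 7.30, 7.50, 7.42 and 7.21 log2 units in Mst1/2-KO CD8+ DCs, against 7.10, 6.71, 6.89 and 6.58 in WT CD8+ DCs. In CD8- DCs it had 11.07, 10.67, 10.71 and 10.42 in the Mst1/2-KO arrays, against 7.45, 6.82, 6.52 and 7.16 in the WT arrays. The 4 Mst1/2-KO CD8- arrays stood apart from all 12 others. Cox6a2 rose 13.3-fold in Mst1/2-KO CD8- DCs, while its effect in CD8+ DCs was 0.54 ± 0.17 (adjusted p = 0.209), giving an interaction of -3.19 ± 0.24 (adjusted p = 2.38e-06). The WT subsets differed little in Cox6a2, with CD8+ minus CD8- at -0.17, whereas the gap was -3.36 in Mst1/2-KO cells.

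Alox5 showed the same shape. Its signal was 5.27, 5.17, 5.36 and 5.39 in Mst1/2-KO CD8+ DCs, against 5.46, 5.50, 5.49 and 5.28 in WT CD8+ DCs. In CD8- DCs it was 9.06, 8.73, 9.05 and 9.71 in Mst1/2-KO arrays, against 6.95, 6.49, 6.25 and 7.22 in WT arrays. The genotypes overlapped in CD8+ DCs and were more than 1 log2 unit apart in CD8- DCs. The effect was -0.13 ± 0.19 in CD8+ DCs and 2.41 ± 0.19 (5.32-fold higher) in CD8- DCs, with an interaction of -2.54 ± 0.27 (adjusted p = 0.00017). A further probe set of Alox5 gave -2.29 ± 0.39. It was dim, with a mean of 4.38 over the 16 arrays, close to the background ceiling of 4.36 defined below. In total DCs Alox5 was also higher in the knockout, by 1.42 ± 0.21 (adjusted p = 0.0176).

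Dab2 had 5.08, 5.49, 5.14 and 5.17 in Mst1/2-KO CD8+ DCs, against 4.87, 5.25, 4.53 and 5.30 in WT CD8+ DCs. Among CD8- arrays it had 8.70, 8.85, 8.79 and 8.72 in Mst1/2-KO arrays, against 5.84, 6.28, 6.11 and 6.33 in WT arrays. The knockout values in CD8- DCs were the tightest of the 4 groups (SD 0.07). Dab2 rose 6.17-fold in CD8- DCs, and the interaction was -2.39 ± 0.21 (adjusted p = 1.71e-05).

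Plcb4, a phospholipase C that signals downstream of G protein-coupled receptors, rose in both subsets but by unequal amounts. Its signal was 6.48, 6.41, 6.45 and 6.74 in Mst1/2-KO CD8+ DCs, against 5.81, 5.95, 5.72 and 5.59 in WT CD8+ DCs, a 1.68-fold rise (adjusted p = 0.0119). In CD8- DCs it was 6.83, 6.58, 6.82 and 7.06 in Mst1/2-KO arrays, against 4.1, 4.12, 4.76 and 4.56 in WT arrays, a 5.41-fold rise. The knockout thus ended at similar levels in both subsets, with a CD8+ minus CD8- gap of -0.30, against 1.38 in WT. The interaction was -1.69 ± 0.20 (adjusted p = 0.000485), and in total DCs Plcb4 was higher in the knockout by 1.68 ± 0.12 (adjusted p = 0.00105).

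Tnip3, which encodes a protein that binds the ubiquitin-editing enzyme A20, averaged 7.29 ± 0.58 in Mst1/2-KO CD8- DCs and 5.54 ± 0.60 in WT CD8- DCs (SD, n = 4 each). In CD8+ DCs it averaged 4.90 ± 0.07 in Mst1/2-KO and 5.30 ± 0.34 in WT cells, and the interaction was -2.15 ± 0.39 (adjusted p = 0.0149). The WT CD8- arrays spread from 4.97 to 6.38, the highest being replicate 1, and lay below the lowest Mst1/2-KO value of 6.59. Chil5, a chitinase-like protein, averaged 6.96 ± 0.43 in Mst1/2-KO CD8- DCs and 5.20 ± 0.25 in WT CD8- DCs, with an effect in CD8+ DCs of 0.02 ± 0.22 and an interaction of -1.74 ± 0.31 (adjusted p = 0.0126).

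Further members of this group came from the gene lists. Ccr1, a receptor for inflammatory chemokines, rose in Mst1/2-KO CD8- DCs, with a measured fold of 2.89 and an interaction of -1.54 ± 0.28. Elovl6, which elongates long-chain fatty acids, rose 2.16-fold there (-1.19 ± 0.25), and Itga5, the fibronectin receptor subunit, rose 1.99-fold (-0.99 ± 0.20). Aldoc, a glycolytic aldolase, rose 1.98-fold (-1.07 ± 0.22). Cd24a, a surface glycoprotein high in CD8+ DCs, rose 1.65-fold in CD8- DCs, where its mean was 10.94 ± 0.12 in Mst1/2-KO and 10.21 ± 0.22 in WT cells. In CD8+ DCs Cd24a averaged 11.72 ± 0.10 in Mst1/2-KO and 11.68 ± 0.05 in WT cells, and its interaction was -0.68 ± 0.14 (adjusted p = 0.0317). The effects of Elovl6, Itga5, Aldoc and Cd24a in CD8+ DCs ranged from -0.09 to 0.04. Ccr1 was near background in CD8+ DCs, as defined below. Its WT CD8- mean of 4.01 also lay below the ceiling, so that its fold may understate the rise.

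**Figure D2:**
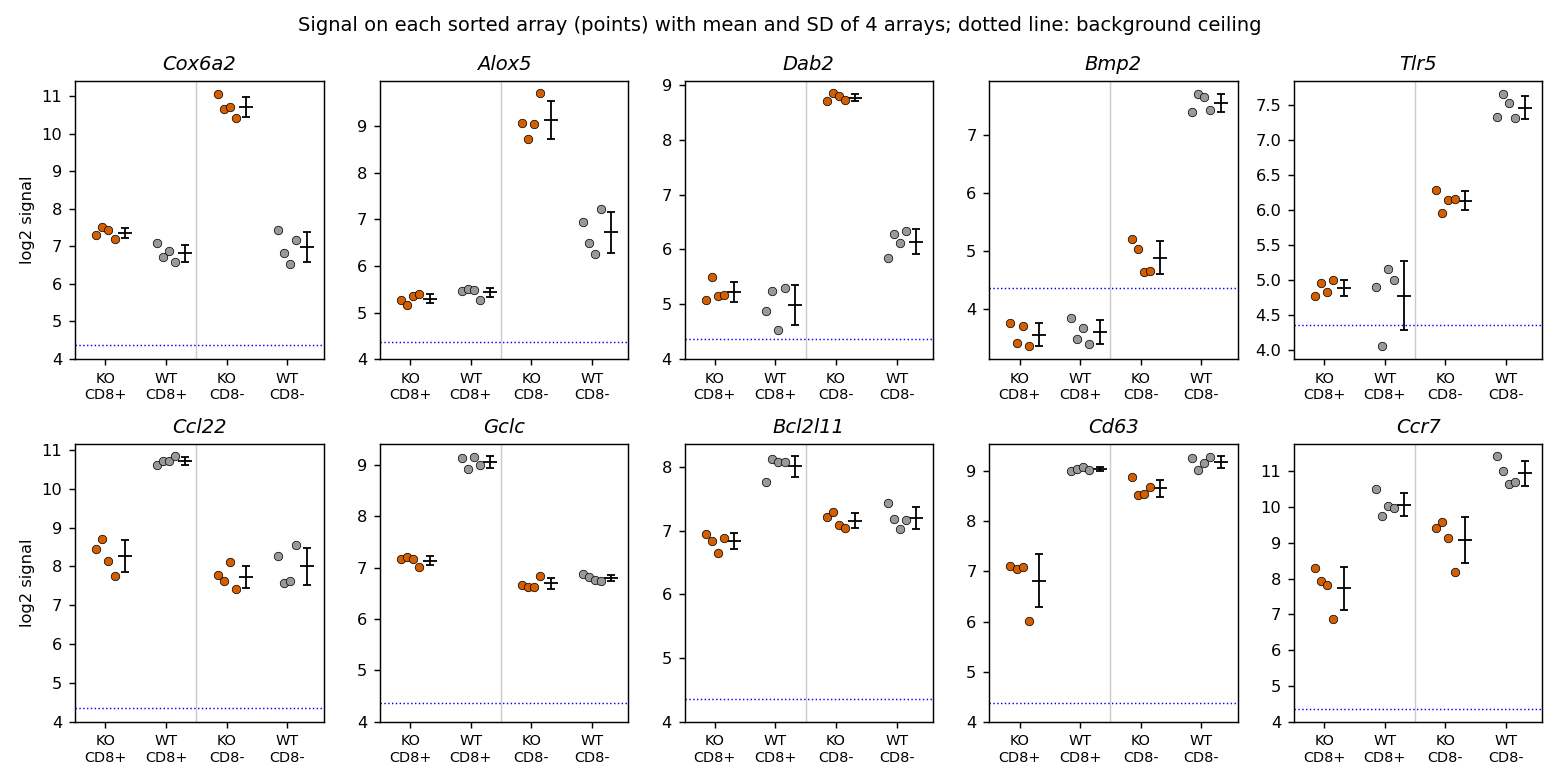
Log2 signal of 10 genes on each of the 16 sorted arrays (points), with the mean and SD of 4 arrays per group and the background ceiling of 4.36 as a dotted line. Vertical scales differ between panels. Cox6a2, Alox5 and Dab2 stand high only on the Mst1/2-KO CD8- arrays, Bmp2 and Tlr5 are lower in Mst1/2-KO than in WT CD8- DCs, and Ccl22, Gclc and Bcl2l11 stand high only on the WT CD8+ arrays.

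The next group, 48 of the 124, was lower in Mst1/2-KO CD8- DCs. Its median effect was -0.01 in CD8+ DCs and -1.06 in CD8- DCs, and all 48 passed the genotype test in CD8- DCs and 0 in CD8+ DCs. It included the growth factor Bmp2, the pathogen sensors Tlr5 and Tlr7, the surface proteins Esam, Adgre1 and Cr2, and the neuronal adhesion molecule Dscam.

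Bmp2, a secreted ligand of the TGF-beta family, had 5.20, 5.04, 4.64 and 4.66 log2 units in Mst1/2-KO CD8- DCs, against 7.39, 7.71, 7.65 and 7.43 in WT CD8- DCs. It fell 6.32-fold there, with no overlap. In CD8+ DCs it had 3.76, 3.41, 3.71 and 3.36 in Mst1/2-KO arrays, against 3.85, 3.49, 3.68 and 3.40 in WT arrays, all below the background ceiling. The interaction was 2.62 ± 0.20 (adjusted p = 2.38e-06), and in total DCs the effect was -1.20 ± 0.26 (adjusted p = 0.0718). Of 30 measured genes of the BMP and TGF-beta pathway, Bmp2 was the 1 called, and the median interaction of the list was -0.06, against -0.00051 over all genes.

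Tlr5, the receptor for bacterial flagellin, had 6.28, 5.96, 6.14 and 6.15 in Mst1/2-KO CD8- DCs, against 7.33, 7.66, 7.53 and 7.31 in WT CD8- DCs. In CD8+ DCs it had 4.77, 4.95, 4.83 and 5.01 in Mst1/2-KO arrays, against 4.90, 4.06, 5.15 and 5.00 in WT arrays. It fell 2.50-fold in CD8- DCs and overlapped between genotypes in CD8+ DCs, with an interaction of 1.44 ± 0.24 (adjusted p = 0.00962). Tlr7, the endosomal sensor of single-stranded RNA, had 9.38, 9.61, 9.34 and 8.65 in Mst1/2-KO CD8- DCs, against 10.55, 10.15, 10.36 and 10.19 in WT CD8- DCs. It fell 2.09-fold there, and its effect in CD8+ DCs pointed the other way without passing the test (0.47 ± 0.22, adjusted p = 0.469). The interaction of Tlr7 was 1.53 ± 0.31 (adjusted p = 0.0317). Tlr5 and Tlr7 were the 2 called of 12 Toll-like receptors (0.559% of all genes were called), whose median interaction was 0.01.

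Esam, an adhesion molecule that marks the Notch2-dependent CD8- DCs, had 5.15, 4.70, 4.64 and 4.63 in Mst1/2-KO CD8- DCs, against 6.34, 6.18, 6.34 and 6.44 in WT CD8- DCs. It fell 2.92-fold there, its effect in CD8+ DCs was -0.45 ± 0.14 (adjusted p = 0.182), and its interaction was 1.09 ± 0.20 (adjusted p = 0.0149). The CD8+ minus CD8- gap of Esam was -0.26 in Mst1/2-KO cells, against -1.36 in WT cells. Adgre1, the macrophage antigen F4/80, fell 2.07-fold in CD8- DCs, with means of 9.26 ± 0.19 in Mst1/2-KO and 10.31 ± 0.21 in WT cells, and an interaction of 1.09 ± 0.22. Slc2a3, the glucose transporter GLUT3, fell 1.6-fold there (0.81 ± 0.18, adjusted p = 0.0476). The call for Slc2a3 was lost under quantile normalization and under cyclic loess.

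The remaining genes with the largest positive interactions had the same shape. Dscam fell 2.80-fold in CD8- DCs, with means of 8.01 ± 0.17 in Mst1/2-KO and 9.49 ± 0.26 in WT cells, and an interaction of 1.35 ± 0.19 (adjusted p = 0.00228). Sucnr1, the receptor for extracellular succinate, fell 3.00-fold (1.55 ± 0.27), and Cr2, complement receptor 2, fell 3.02-fold (1.57 ± 0.28). Gpm6b, a proteolipid family membrane glycoprotein, fell 3.21-fold (1.57 ± 0.25), and Slc8a2, a sodium/calcium exchanger, fell 2.60-fold (1.47 ± 0.17). Mid2, a TRIM family ubiquitin ligase, fell 3.05-fold (1.68 ± 0.34), and Tbc1d30, a Rab GTPase-activating protein, fell 2.50-fold (1.47 ± 0.26). WT CD8- replicate 1 stood apart from the other 3 WT CD8- arrays for Gpm6b, at 6.86 against 7.44 to 7.50, and for Tbc1d30, at 6.48 against 5.61 to 5.70.

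Several of these genes were near background in one subset. A subset is called near background for a gene where both genotype means lie below 4.36 log2 units, the 95th percentile of the 16-array means of 1394 olfactory and vomeronasal receptor genes. By this rule 14 of the 124 called genes were near background in CD8+ DCs alone (11.3%, against 1.69% of all genes), 1 in CD8- DCs alone, 2 in both and 107 in neither. Among the 10 largest positive interactions 6 were near background in CD8+ DCs: Bmp2, Mid2, Gpm6b, Cr2, Sucnr1 and Slc8a2. Among the 10 largest negative interactions 0 were. For the 6, both genotype means in CD8+ DCs lay below the ceiling, where a fall may be hard to see. The ceiling is not a floor for every gene, as the mean of Psca in CD8- DCs was 3.86 in WT and 2.75 in Mst1/2-KO cells. Cr2 and Mid2 were also below the ceiling in Mst1/2-KO CD8- DCs, at means of 3.88 and 3.81, so that their folds may understate the fall. When the 10837 genes above the ceiling in both subsets were tested alone, 154 were called, 107 of them among the 124.

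The group with the larger change in CD8+ DCs held 20 genes, 19 of them lower in the knockout. These 19 had a median effect of -1.25 in CD8+ DCs and -0.10 in CD8- DCs. The genotype test was passed by 17 of the 19 in CD8+ DCs and by 4 in CD8- DCs. Gclc, the catalytic subunit of the enzyme that begins glutathione synthesis, had the smallest p of all genes tested, and Ccl22, a chemokine made by mature DCs, the largest interaction.

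Gclc had 7.17, 7.21, 7.17 and 7.01 log2 units in Mst1/2-KO CD8+ DCs, against 9.15, 8.92, 9.16 and 9.01 in WT CD8+ DCs. On CD8- arrays the values were 6.67, 6.63, 6.63 and 6.85 in Mst1/2-KO arrays, against 6.87, 6.81, 6.77 and 6.74 in WT arrays. WT CD8+ DCs stood alone, with the other 12 arrays between 6.63 and 7.21. Gclc fell 3.78-fold in CD8+ DCs, its effect in CD8- DCs was -0.10 ± 0.08 (adjusted p = 0.560), and the interaction was -1.82 ± 0.11 (adjusted p = 1.81e-07). In total DCs it was lower in the knockout by 0.88 log2 units (effect -0.88 ± 0.14, adjusted p = 0.0263).

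Ccl22 had 8.46, 8.71, 8.14 and 7.74 in Mst1/2-KO CD8+ DCs, against 10.61, 10.72, 10.71 and 10.84 in WT CD8+ DCs. CD8- DCs gave 7.77, 7.62, 8.11 and 7.42 in Mst1/2-KO arrays, against 8.27, 7.58, 7.62 and 8.55 in WT arrays. The genotypes were well apart in CD8+ DCs and overlapped in CD8- DCs. Ccl22 fell 5.49-fold in CD8+ DCs, with an effect of -0.27 ± 0.22 in CD8- DCs (adjusted p = 0.597) and an interaction of -2.18 ± 0.31 (adjusted p = 0.00257).

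Cd63, a tetraspanin of late endosomes, had 7.10, 7.05, 7.10 and 6.02 in Mst1/2-KO CD8+ DCs, against 9.01, 9.04, 9.09 and 9.03 in WT CD8+ DCs. In CD8- DCs it had 8.89, 8.53, 8.54 and 8.69 in Mst1/2-KO arrays, against 9.26, 9.02, 9.17 and 9.28 in WT arrays. The WT subsets were alike in Cd63, while the knockout CD8+ arrays were the lowest, replicate 4 most of all. Cd63 fell 4.68-fold in CD8+ DCs, its effect in CD8- DCs was -0.52 ± 0.18 (adjusted p = 0.104), and the interaction was -1.71 ± 0.25 (adjusted p = 0.0037).

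The apoptosis regulators Bcl2l11 (BIM, a BH3-only activator of cell death) and Bcl2l14 followed this pattern. Bcl2l11 had 6.95, 6.85, 6.65 and 6.89 in Mst1/2-KO CD8+ DCs, against 7.76, 8.12, 8.08 and 8.07 in WT CD8+ DCs. Among CD8- arrays it had 7.21, 7.30, 7.09 and 7.04 in Mst1/2-KO arrays, against 7.44, 7.18, 7.02 and 7.16 in WT arrays. It fell 2.26-fold in CD8+ DCs, its CD8- effect was -0.04 ± 0.10, and the interaction was -1.13 ± 0.15 (adjusted p = 0.0011). Bcl2l14 fell 1.69-fold in CD8+ DCs and was near background in CD8- DCs (interaction -1.11 ± 0.17). These were the 2 called of 16 measured BCL2 family genes (0.559% of all genes were called), whose median interaction was -0.20.

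For Anxa3, an annexin, and Ccl5, a chemokine, the fall was present in both subsets and deeper in CD8+ DCs. Anxa3 had 4.38, 5.09, 4.78 and 5.18 in Mst1/2-KO CD8+ DCs, against 7.02, 7.38, 7.87 and 8.08 in WT CD8+ DCs. On CD8- arrays the values were 7.50, 6.63, 7.37 and 7.27 in Mst1/2-KO arrays, against 7.99, 7.87, 8.37 and 8.76 in WT arrays. It fell 6.64-fold in CD8+ and 2.07-fold in CD8- DCs, with an interaction of -1.68 ± 0.36 (adjusted p = 0.0397). Ccl5 fell 4.55-fold in CD8+ and 1.98-fold in CD8- DCs, with an interaction of -1.20 ± 0.22 (adjusted p = 0.0151). Its lowest Mst1/2-KO CD8- array, replicate 4 at 10.57, lay below the other 3 at 11.29 to 11.37.

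A change of sign between the subsets that passed both genotype tests was found for 1 gene, Glipr2, a Golgi-associated protein. Glipr2 had 4.92, 4.89, 4.80 and 4.63 in Mst1/2-KO CD8+ DCs, against 5.98, 5.40, 5.31 and 5.39 in WT CD8+ DCs. CD8- DCs gave 6.33, 5.65, 6.15 and 6.13 in Mst1/2-KO arrays, against 5.52, 5.12, 5.07 and 5.45 in WT arrays. It fell 1.63-fold in CD8+ DCs (adjusted p = 0.0440) and rose 1.71-fold in CD8- DCs (adjusted p = 0.00569), with an interaction of -1.48 ± 0.22 (adjusted p = 0.00388). The estimates had opposite signs for 66 of the 124 (53.2%, against 42.2% of all genes), and of these Glipr2 was the 1 gene that passed both genotype tests. Cd300c, an immunoglobulin-family surface receptor, had effects of -0.62 ± 0.17 in CD8+ and 0.91 ± 0.17 in CD8- DCs, with an interaction of -1.53 ± 0.24. Tnfsf9, the costimulatory 4-1BB ligand, had -0.71 ± 0.20 and 0.69 ± 0.20 in the same order (-1.39 ± 0.28). Idh1, the cytosolic isocitrate dehydrogenase, had -0.48 ± 0.12 and 0.65 ± 0.12 (-1.13 ± 0.17). All 3 passed in CD8- DCs and none of them in CD8+ DCs, where their adjusted p was 0.112, 0.119 and 0.0794.

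A change shared by the subsets can still differ in size between them. Over all genes, 111 were called in both subsets with the same sign, and 8 with the largest mean effect were examined: Ccr7, Mreg, H2-M2, Asprv1, Psca, Socs2, and also Plcb4 and Anxa3, already described. Ccr7, the receptor that guides mature DCs to lymph nodes, had 8.28, 7.92, 7.83 and 6.87 in Mst1/2-KO CD8+ DCs, against 10.51, 9.73, 10.04 and 9.98 in WT CD8+ DCs. In CD8- DCs it had 9.41, 9.59, 9.14 and 8.17 in Mst1/2-KO arrays, against 11.41, 11.01, 10.63 and 10.70 in WT arrays. The genotypes were apart in both subsets, and the interaction of -0.48 had an interval of -1.39 to 0.43 (adjusted p = 0.820), which leaves room for a difference of more than 1 log2 unit.

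Mreg, melanoregulin, fell 6.64-fold in CD8+ and 3.90-fold in CD8- DCs, with an interaction of -0.77 (interval -1.36 to -0.18, adjusted p = 0.317). H2-M2, a non-classical MHC class I gene, fell 6.94-fold and 3.41-fold in the same order (-1.02, interval -1.71 to -0.34, adjusted p = 0.218). Asprv1, a retroviral-like aspartic protease, fell 4.65-fold and 3.31-fold (-0.49, interval -1.04 to 0.06). Socs2, a suppressor of cytokine signalling, had measured falls of 4.29-fold and 3.01-fold (-0.51, interval -1.47 to 0.44). Its Mst1/2-KO CD8+ mean of 3.56 lay below the background ceiling, so that the fall in CD8+ DCs may be understated and the interaction limited. Its further probe set gave an interaction of -0.02 ± 0.16 with effects of -0.25 and -0.23. Psca, a GPI-anchored surface protein, fell 6.79-fold in CD8+ DCs and was near background in CD8- DCs, where its effect was -1.11 ± 0.30 (interaction -1.66, interval -2.56 to -0.76, adjusted p = 0.101). None of these 6 passed the interaction test, and 3 of them, Mreg, H2-M2 and Psca, passed it with the replicate number as a fixed block. The intervals of these 3, which are not adjusted for the number of genes, exclude 0.

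**Figure D3:**
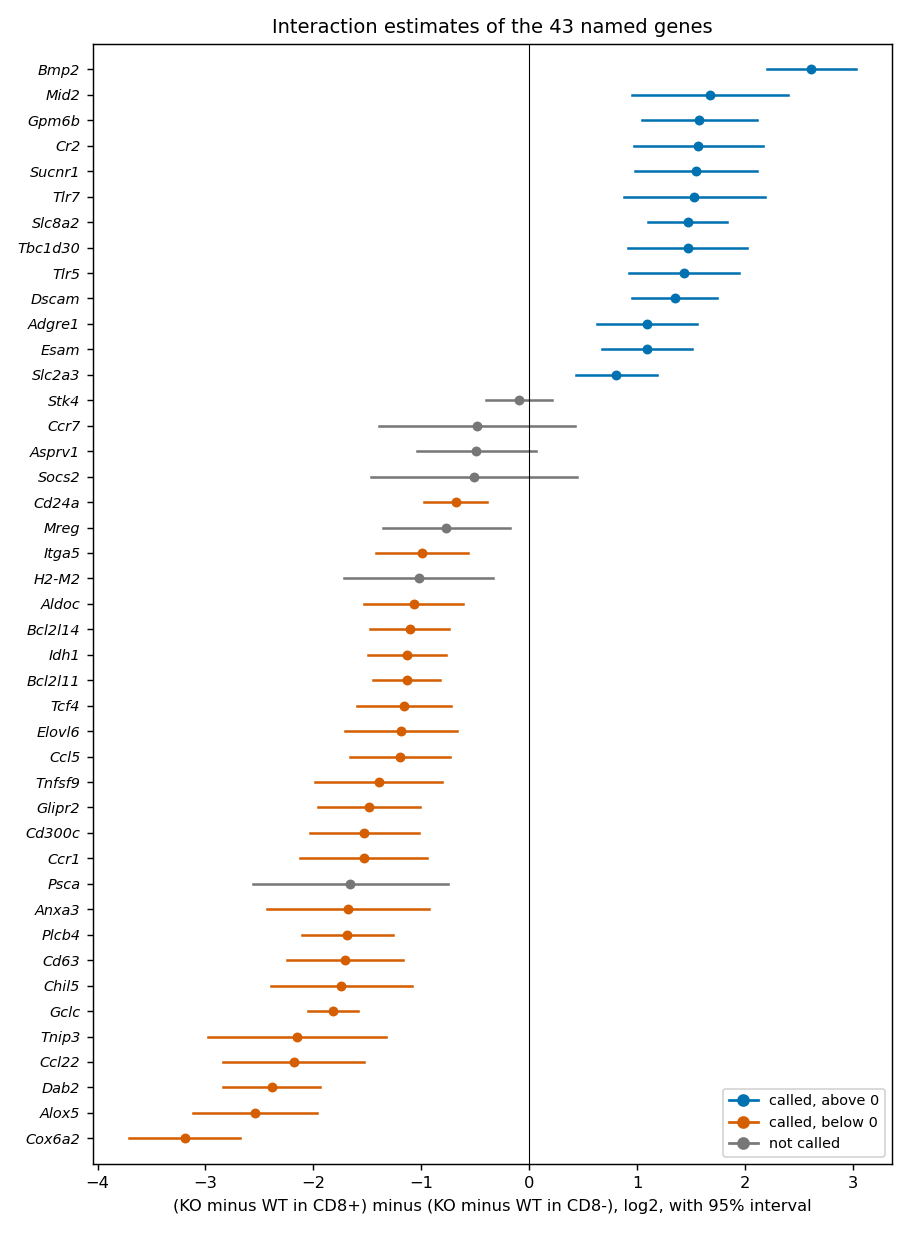
Interaction estimate on the log2 scale of the 43 named genes (points) with its 95% interval (lines), ordered from positive to negative; colours separate called from uncalled genes. Bmp2 at 2.62 and Cox6a2 at -3.19 mark the ends, and Stk4 lies at -0.09.

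Promoter sequence is shown for 4 genes from some of the patterns above: Alox5 and Tnip3 (higher in Mst1/2-KO CD8- DCs), Ccl22 (lower in CD8+ DCs) and H2-M2 (lower in both). The windows run from 250 bases before to 50 after the transcription start in RefSeq, build GRCm38.p6, at chr6:116461129-116461428, minus strand (Alox5), chr6:65590148-65590447, plus strand (Tnip3), chr8:94745434-94745733, plus strand (Ccl22) and chr17:37483505-37483804, minus strand (H2-M2). They are written 5′ to 3′ with capitals for matches on either strand to the TEAD core GGAATG or to the kappaB consensus, motifs that can share bases.
Alox5: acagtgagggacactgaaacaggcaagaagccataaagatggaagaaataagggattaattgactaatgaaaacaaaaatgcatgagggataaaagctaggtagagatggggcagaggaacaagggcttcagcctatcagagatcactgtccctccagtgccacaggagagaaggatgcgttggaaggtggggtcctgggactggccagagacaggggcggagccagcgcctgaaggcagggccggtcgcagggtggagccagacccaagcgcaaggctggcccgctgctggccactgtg
Tnip3: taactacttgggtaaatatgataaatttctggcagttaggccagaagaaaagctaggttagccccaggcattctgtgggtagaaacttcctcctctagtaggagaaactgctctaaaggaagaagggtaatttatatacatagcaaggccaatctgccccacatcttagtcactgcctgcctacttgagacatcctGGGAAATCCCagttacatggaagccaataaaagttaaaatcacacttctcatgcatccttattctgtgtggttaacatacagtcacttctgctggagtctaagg
Ccl22: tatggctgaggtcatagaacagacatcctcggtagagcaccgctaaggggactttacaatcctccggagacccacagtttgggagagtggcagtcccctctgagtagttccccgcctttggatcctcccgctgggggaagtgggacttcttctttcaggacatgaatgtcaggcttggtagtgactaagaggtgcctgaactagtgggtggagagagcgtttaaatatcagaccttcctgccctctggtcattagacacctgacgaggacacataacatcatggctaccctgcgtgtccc
H2-M2: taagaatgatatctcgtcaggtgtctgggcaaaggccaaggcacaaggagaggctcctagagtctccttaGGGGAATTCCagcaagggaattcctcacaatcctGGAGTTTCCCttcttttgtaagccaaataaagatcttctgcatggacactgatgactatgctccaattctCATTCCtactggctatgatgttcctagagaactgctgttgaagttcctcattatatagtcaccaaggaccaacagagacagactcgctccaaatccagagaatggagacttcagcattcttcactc
The Tnip3 window holds 1 kappaB match. The H2-M2 window holds 2 kappaB matches and 1 TEAD core, written as its reverse complement. The windows of Alox5 and Ccl22 hold neither set of letters. Among named genes not shown, only Ccr1 and Asprv1 hold a kappaB match, 1 each. Dab2, Plcb4, Aldoc and Bcl2l14 each hold 1 TEAD core, in 1 of their windows. Of the group lower in Mst1/2-KO CD8- DCs, the windows of Tlr5, Gpm6b, Cr2, Sucnr1, Dscam, Slc8a2 and Mid2 hold neither motif. Among all 32851 windows of this length, 14.7% hold the TEAD core and 8.46% the kappaB consensus, and 27 of the 43 named genes had a window in the table.

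Gene lists place these genes among others of the same kind. They hold 641 different measured genes in 35 lists, of which 15 lists had at least 1 called gene and 20 had none. In all, 23 different genes were called. Over all genes 0.559% were called, 0.221% positive and 0.338% negative. The counts describe the lists and test nothing.

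Among lists of subset identity, CD8- DC markers had 3 positive calls (Tlr5, Tlr7 and Esam) and 0 negative of 26, with a median interaction of 0.07 and 10 of 26 estimates below 0. In CD8- DCs 9 of the 26 fell (2.79% of all genes) and 4 rose (3.9% of all genes). Those that rose, named after their values were seen, were Clec10a (effect 1.13), Mgl2 (1.11), Cx3cr1 (0.81) and Itgam (0.72). In CD8+ DCs 3 of the 26 fell (0.654% of all genes) and 1 rose (0.234% of all genes). Cd4, a coreceptor carried by many CD8- DCs, had 8.88, 8.67, 8.19 and 8.04 in Mst1/2-KO CD8- DCs, against 10.23, 10.60, 10.78 and 10.30 in WT CD8- DCs, and fell there by 2.03 ± 0.21 on the log2 scale. Its interaction of 1.27 ± 0.29 was not called (adjusted p = 0.060). CD8+ DC markers had 0 positive and 1 negative call (Cd24a) of 27, a median of -0.54 and 20 of 27 estimates below 0. In CD8+ DCs, 0 of the 27 CD8+ DC markers rose in the knockout (0.234% of all genes did) and 1, Il12b, fell (effect -1.81). In CD8- DCs 11 rose (3.9% of all genes) and 2 fell, Ly75 (-0.95) and Id2 (-0.42). Xcr1, the chemokine receptor of CD8+ DCs, had 8.11, 7.99, 7.92 and 8.29 in Mst1/2-KO CD8- DCs, against 7.20, 6.91, 7.05 and 7.79 in WT CD8- DCs. Its interaction of -0.82 ± 0.20 was not called (adjusted p = 0.0833). The mean of the CD8+ DC list was 9.98 to 10.08 on Mst1/2-KO against 9.998 to 10.11 on WT CD8+ arrays, and 7.61 to 7.90 on Mst1/2-KO against 7.23 to 7.59 on WT CD8- arrays.

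Some markers of plasmacytoid DCs differed between genotypes in the CD8- arrays. Of 16 measured, 3 had a negative interaction call (Cox6a2, Cd300c and Tcf4), 15 of 16 estimates were below 0 and the median was -0.58. In CD8+ DCs 0 of the 16 rose in the knockout (0.234% of all genes did), and in CD8- DCs 7 rose (3.9% of all genes) and 1, Lair1, fell (effect -0.56). The list's mean was 6.88 to 7.003 on Mst1/2-KO against 6.95 to 7.02 on WT CD8+ arrays, and 8.09 to 8.49 on Mst1/2-KO against 7.35 to 7.82 on WT CD8- arrays. This mean includes Cox6a2, at 10.42 to 11.07 on Mst1/2-KO against 6.52 to 7.45 on WT CD8- arrays, and was not computed without it. Ly6d, Ccr9, Klk1, Pacsin1, Siglech, Spib, Irf7, Atp1b1 and Ptprcap overlapped between the genotypes on CD8- arrays. For Tspan31 the lowest Mst1/2-KO and the highest WT value there were both 7.51. None of the 16 was near background in both subsets.

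Tcf4, the transcription factor of the plasmacytoid lineage, had 9.29, 9.07, 9.33 and 9.53 in Mst1/2-KO CD8- DCs, against 8.71, 7.98, 7.97 and 8.24 in WT CD8- DCs. It rose 2.11-fold there, its CD8+ effect was -0.08 ± 0.15, and its interaction was -1.16 ± 0.21 (adjusted p = 0.0126). Siglech, the sialic acid-binding lectin of plasmacytoid DCs, had 8.68, 8.20, 9.08 and 9.24 in Mst1/2-KO CD8- DCs, against 8.38, 7.79, 7.98 and 8.35 in WT CD8- DCs. The genotypes overlapped, and the interaction was -0.86 ± 0.27 (adjusted p = 0.207). Bst2 (-0.82 ± 0.23, adjusted p = 0.130) and Ly6c2 (-1.89 ± 0.52, adjusted p = 0.130) were not called either. The part of these markers in the genes that rose in CD8- DCs was not tested.

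Other cell types gave fewer interaction calls. B cell markers had 1 positive call, Cr2, of 11 measured, 4 of which were near background in both subsets. In CD8- DCs 4 of the 11 fell (2.79% of all genes) and 0 rose (3.9% of all genes). Their mean was 4.52 to 4.89 on Mst1/2-KO against 4.76 to 4.95 on WT CD8+ arrays, and 5.02 to 5.25 on Mst1/2-KO against 5.36 to 5.60 on WT CD8- arrays. Their part in the Cr2 result was not tested. Macrophage and monocyte markers had 1 positive call, Adgre1, of 17, and their mean was 7.64 to 7.80 on Mst1/2-KO CD8- against 7.46 to 7.80 on WT CD8- arrays. T cell (10 measured), NK cell (10), neutrophil (13) and erythroid (4) markers had 0 interaction calls, and the smallest adjusted p among them was 0.297. Sex-linked genes (5 measured) had 0 calls, with a median interaction of 0.15. Among them the Y-linked Eif2s3y had effects of -0.52 ± 0.28 in CD8+ and -0.81 ± 0.28 in CD8- DCs, neither called, and an interaction of 0.30 ± 0.40. In Mst1/2-KO replicate 3 it was at 4.06 in CD8+ and 4.35 in CD8- DCs, against 5.07 to 5.65 on the other Mst1/2-KO arrays. WT arrays had 5.35 to 6.15. The Y-linked Kdm5d had 3.75, 4.79, 3.76 and 4.77 on Mst1/2-KO against 4.79 to 5.29 on WT CD8- arrays. Xist lay at 6.79 to 7.13 on Mst1/2-KO and 6.75 to 7.01 on WT arrays. Whether the sex of the mice differed between the genotypes was not tested.

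**Figure D4:**
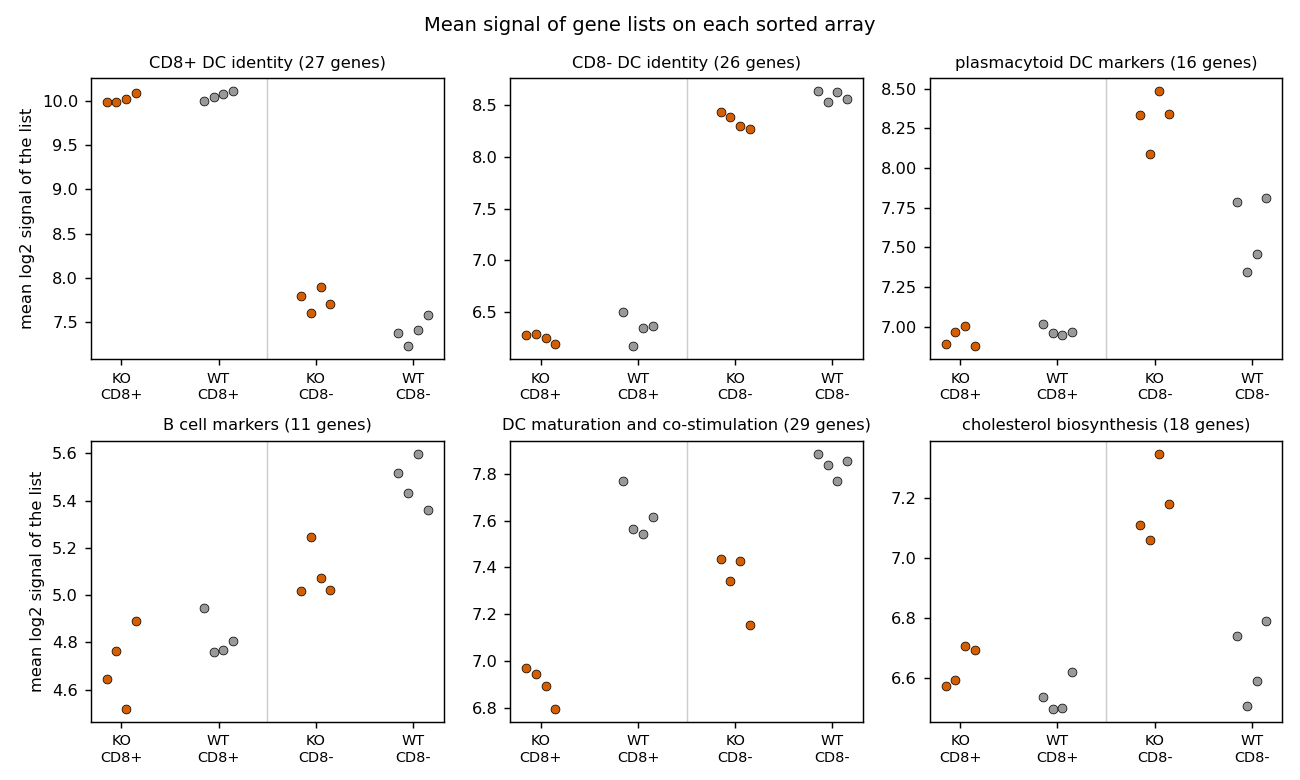
Mean log2 signal of 6 gene lists on each of the 16 sorted arrays (points); vertical scales differ between panels and do not start at 0. The plasmacytoid DC list lies at 8.09 to 8.49 on Mst1/2-KO CD8- arrays, above the 7.35 to 7.82 of WT CD8- arrays. It includes Cox6a2, and no such gap appears in CD8+ DCs. The maturation list is lower on Mst1/2-KO than on WT arrays in both subsets.

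DC maturation and co-stimulation genes had 3 negative calls (Ccl22, Tnfsf9 and Ccl5) of 29 measured, with a median interaction of -0.07. The median effect was -0.48 in CD8+ DCs and -0.41 in CD8- DCs, and 13 and 16 of the 29 fell (0.654% and 2.79% of all genes fell). Their mean was 6.80 to 6.97 on Mst1/2-KO against 7.54 to 7.77 on WT CD8+ arrays, and 7.16 to 7.44 on Mst1/2-KO against 7.77 to 7.88 on WT CD8- arrays. Non-canonical NF-kB genes (10 measured) and canonical NF-kB subunits and targets (18) had 0 interaction calls, the smallest adjusted p being 0.051 for Nfkb2 and 0.0547 for Bcl3. Their median interactions were -0.16 and -0.16.

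Cholesterol and proliferation genes show how a call in one subset differs from a difference between subsets. Cholesterol biosynthesis genes had 0 of 18 called higher in Mst1/2-KO CD8+ DCs (0.234% of all genes were) and 12 in Mst1/2-KO CD8- DCs (3.9% of all genes were), with median effects of 0.13 in CD8+ and 0.47 in CD8- DCs. All 18 interactions were below 0, with a median of -0.41, yet 0 were called, and the smallest adjusted p was 0.135 (Sc5d). Against the same shares of all genes, proliferation genes had 5 of 29 called higher in CD8+ and 23 in CD8- DCs, but their median effects were 0.44 and 0.58 in the same order. Their median interaction was -0.07 and 0 were called.

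Of the metabolic lists, fatty acid synthesis and desaturation had 1 negative call (Elovl6) of 12 and a median of -0.26, with 11 of 12 estimates below 0. Leukotriene and prostaglandin enzymes had 1 negative call (Alox5) of 14 and a median of -0.01. Glycolysis and TCA cycle genes had 1 positive (Slc2a3) and 2 negative calls (Idh1 and Aldoc) of 33 and a median of -0.05. Oxidative phosphorylation genes had 0 calls of 70 and a median of -0.03. Among receptor and signalling families, 1 of 18 chemokine receptors (Ccr1), 1 of 15 phospholipase C genes (Plcb4) and 1 of 24 integrins (Itga5) had a negative call, with medians of 0.02, -0.04 and -0.04.

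The remaining lists had 0 calls. These were ribosome biogenesis (19 measured), interferon-stimulated genes (24), MHC class I (18) and class II presentation (13), the Notch pathway (26), Hippo pathway components (19), YAP/TAZ target genes (19), the Clec4 lectin cluster (9), immediate-early and heat-shock genes (25) and lysosome genes (18). Over all 20 lists without a call, the median interaction ran from -0.41 to 0.24. For the Hippo components it was -0.09 and for YAP/TAZ targets 0.05.

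In total DCs, where 188 genes (0.848%) were called, some named genes of the CD8+ pattern and of the CD8- pattern passed the test and others did not. Cd63 (-1.37 ± 0.13, adjusted p = 0.00301), Anxa3 (-1.65 ± 0.18, adjusted p = 0.00508) and Ccl5 (-1.49 ± 0.15, adjusted p = 0.00301) fell. Tlr7 (-1.69 ± 0.27, adjusted p = 0.0219), Dscam (-1.29 ± 0.24, adjusted p = 0.0449) and Adgre1 (-1.47 ± 0.22, adjusted p = 0.0192) fell as well. Cox6a2 (0.95 ± 0.31, adjusted p = 0.204) and Dab2 (1.28 ± 0.42, adjusted p = 0.207) did not pass the test there. Among others that did not pass were Ccl22 (-1.04 ± 0.22, adjusted p = 0.0628) and Bcl2l11 (-0.35 ± 0.22, adjusted p = 0.553). Bcl2l14 (-0.42 ± 0.16, adjusted p = 0.285) and Tlr5 (-0.51 ± 0.21, adjusted p = 0.332) did not pass either. Tcf4 (0.23 ± 0.17), Idh1 (-0.09 ± 0.15) and Tnfsf9 (0.09 ± 0.15) had values near 0 in total DCs, with adjusted p of 0.646, 0.878 and 0.878.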

How the data were processed

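Splenic DCs were sorted by FACS, and their RNA was amplified, biotin-labelled and hybridised to arrays (labels' protocols). Log2 values, as deposited by the authors, cover 41155 probe sets on 34 arrays (0.572 to 13.2); RMA and Partek 6.6 are named in the submitters' processing notes, and the genome build is not given in the sources used here. All probe sets share their digits beyond the 5th decimal among the sorted arrays, and 6.3% do so between sorted and total DC arrays, so levels were compared within the sorted arrays only.

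Of 23521 probe sets with exactly 1 gene symbol, the brightest on average over the 34 arrays stood for each of 22180 genes. A group-means model of the 16 sorted arrays was fitted in R 4.3.3 by limma (version 3.58.1, with contrasts.fit and eBayes), with no covariate and no filter on dim genes, and a call needed an adjusted p (Benjamini-Hochberg over all genes) under 0.05. Values after ± are SE for effects and SD (n = 4) for means. Total DC arrays had their own fit. On simulated data, interactions of 1 log2 unit were recovered for 43 of 50 genes and those of 2 for 49 of 50. The number of arrays limits the precision.

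Named genes were Stk4, the 10 largest interactions each way among called genes, up to 3 called members of each list, the 8 largest changes shared by both subsets and genes called with opposite signs, leaving out predicted genes, clone names, microRNAs and snoRNAs. The comparison, members and 35 gene lists were chosen with earlier results of these data known. Alternatives were 2 further normalizations, 2 filters on dim genes, 2 replicate blocks, array weights, 2 eBayes settings, the mean over probe sets, a background ceiling at the median of all genes, stricter thresholds and leaving out each array. Promoters come from RefSeq (GRCm38.p6).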

Additional observations from a re-analysis of the deposited data

Results flagged for a closer look

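Single arrays stood apart from the other 3 of their group, by Dixon's 95% criterion, in 13 of 172 groups examined over the 43 named genes; chance gives about 5% of groups. In WT CD8- DCs, replicate 1 was low for Gpm6b (6.86, the others 7.44 to 7.50) and high for Tbc1d30 (6.48, the others 5.61 to 5.70), and replicate 3 was high for Slc8a2 (6.41, the others 6.07 to 6.09). In WT CD8+ DCs, replicate 1 was low for Bcl2l11 (7.76, the others 8.07 to 8.12) and Psca (6.62, the others 7.43 to 7.53) and high for Glipr2 (5.98, the others 5.31 to 5.40). In the same group, replicate 4 was low for Alox5 (5.28, the others 5.46 to 5.50) and replicate 3 for Aldoc (6.39, the others 6.48 to 6.50). In Mst1/2-KO CD8+ DCs, replicate 2 was low for Sucnr1 (2.69, the others 2.98 to 3.04), replicate 1 for Tnip3 (4.79, the others 4.94 to 4.94) and replicate 4 for Cd63 (6.02, the others 7.05 to 7.10). In Mst1/2-KO CD8- DCs, replicate 1 was high for Esam (5.15, the others 4.63 to 4.70) and replicate 4 was low for Ccl5 (10.57, the others 11.29 to 11.37). WT CD8+ replicate 1, which accounts for 3 of the 13, had the lowest array weight of the 16 (0.57).

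The genotype effect differed between CD8+ and CD8- DCs, by the interaction test, for 36 of the 43 named genes. Positive differences on the log2 scale were 2.62 for Bmp2, 1.68 for Mid2, 1.57 for Gpm6b, 1.57 for Cr2, 1.55 for Sucnr1, 1.53 for Tlr7, 1.47 for Slc8a2, 1.47 for Tbc1d30, 1.44 for Tlr5, 1.35 for Dscam, 1.09 for Esam, 1.09 for Adgre1 and 0.81 for Slc2a3. The 10 largest negative differences were -3.19 for Cox6a2, -2.54 for Alox5, -2.39 for Dab2, -2.18 for Ccl22, -2.15 for Tnip3, -1.82 for Gclc, -1.74 for Chil5, -1.71 for Cd63, -1.69 for Plcb4 and -1.68 for Anxa3. The other negative differences were -1.54 for Ccr1, -1.53 for Cd300c, -1.48 for Glipr2, -1.39 for Tnfsf9, -1.20 for Ccl5, -1.19 for Elovl6, -1.16 for Tcf4, -1.13 for Bcl2l11, -1.13 for Idh1, -1.11 for Bcl2l14, -1.07 for Aldoc, -0.99 for Itga5 and -0.68 for Cd24a.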

How the results depend on the processing

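No interaction of a named gene changed direction under any alternative run. Against 124 genes called (49 positive, 75 negative, 104 with the larger effect in CD8- DCs), array weights gave 222 (82, 140, 191). Adjusted p under 0.01 gave 43 (16, 27), and adjusted p under 0.05 with at least a 2-fold difference gave 80, 29 of them positive. The other normalizations, filters, eBayes settings and the mean over probe sets gave 133 to 176. Leaving out each array in turn gave 79 to 259 called interactions (30 to 104 positive, 45 to 155 negative, 64 to 235 with the larger effect in CD8- DCs), 114 to 221 called effects in CD8+ DCs and 918 to 1609 in CD8- DCs. The extremes came without WT CD8- replicate 2 (79), Mst1/2-KO CD8- replicate 4 (80) and WT CD8- replicate 1 (259), and the cause was not tested. Of the 124, 69 remained called in all 16 leave-outs, as did 26 of the 36 called named genes. The other 10 (Mid2, Tlr7, Anxa3, Cd24a, Adgre1, Tnfsf9, Elovl6, Aldoc, Slc2a3 and Itga5) lost the call at least once, with the direction kept. In the other 10 settings, 35 of the 36 kept it wherever they were tested, the exception being Slc2a3. The near-background counts of the 124 did not change with the ceiling at the median of all genes. That ceiling, 4.349 log2 units, lay close to the main one of 4.364, so the comparison says little about other ceilings. Same-numbered arrays of the subsets deviated together with r of 0.0926 to 0.213 in Mst1/2-KO and 0.126 to 0.337 in WT cells over all genes, and each of the 8 correlated best with its own number. The highest r with another number was 0.0718. No label ties the numbers, so the main fit left the arrays unpaired, and whether equal numbers mark the same animals was not tested. The replicate block gave 211 called as a fixed term (139 negative) and 230 as a random one (91 positive, 139 negative, 192 with the larger effect in CD8- DCs). Signal near background may limit what can be seen of genes such as Bmp2 in CD8+ DCs.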

Other observations

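The genes given here were chosen after their values were seen. Beside Alox5, the leukotriene B4 receptor Ltb4r1 rose in Mst1/2-KO CD8- DCs, with means of 7.29 ± 0.16 in Mst1/2-KO and 5.66 ± 0.15 in WT cells (SD, n = 4 each). In CD8+ DCs Ltb4r1 averaged 4.68 ± 0.15 in Mst1/2-KO and 4.37 ± 0.31 in WT cells, and its interaction was -1.31 ± 0.19 (limma, adjusted p = 0.00276). Cysltr1, a cysteinyl leukotriene receptor, also rose in CD8- DCs (1.65 ± 0.21), but its interaction of -1.09 ± 0.30 was not called (adjusted p = 0.131). Alox5ap, the activating protein of 5-lipoxygenase, had an interaction of -0.01 ± 0.09 (adjusted p = 0.992). Cox6a1, the common counterpart of Cox6a2, had -0.04 ± 0.09 (adjusted p = 0.947), and Gclm, the regulatory partner of Gclc, had 0.29 ± 0.16 (adjusted p = 0.631).

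Tmem176a and Tmem176b, related membrane proteins, both fell in CD8+ DCs. Tmem176a averaged 6.15 ± 0.13 in Mst1/2-KO and 7.53 ± 0.10 in WT CD8+ DCs, against an effect of -0.25 ± 0.08 in CD8- DCs, and its interaction was -1.12 ± 0.11 (adjusted p = 5.22e-05). Tmem176b averaged 6.56 ± 0.33 in Mst1/2-KO and 7.71 ± 0.09 in WT CD8+ DCs, with an interaction of -0.83 ± 0.16 (adjusted p = 0.0272). The Ras activators Rasgrp2 and Rasgrp3 went opposite ways in CD8- DCs. Rasgrp2 averaged 7.41 ± 0.21 in Mst1/2-KO and 5.98 ± 0.43 in WT CD8- DCs (interaction -1.33 ± 0.26, adjusted p = 0.0272), and Rasgrp3 averaged 7.50 ± 0.19 in Mst1/2-KO and 8.78 ± 0.15 in WT CD8- DCs (interaction 1.21 ± 0.14, adjusted p = 0.00028).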
